A study of Homo sapiens with 6 samples.

Results

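Proteoglycans are proteins that carry glycosaminoglycan chains, and the set described here holds the 10 syndecan and glypican core proteins with the enzymes that build, sulfate, epimerise and trim those chains. Members were taken by gene name: the CHST, HS3ST, HS6ST and NDST sulfotransferase families, the glypicans GPC1 to GPC6, the syndecans SDC1 to SDC4, and named polymerases, epimerases, sulfotransferases, endosulfatases and heparanase, each with a count above 0 in at least 3 libraries. The names matched 60 genes, and all 60 met the count rule, out of 28471 genes that met it and 57500 genes listed. The CHST names also brought in 3 enzymes that sulfate N-glycans or the HNK-1 epitope rather than glycosaminoglycans, and these are described separately.

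RNA was sequenced from 22Rv1, a line of human prostate cancer cells long kept in culture. There were 2 groups with 3 libraries each: cells labelled as derived from a liver metastasis (liver-derived) and control cells with the genotype label wild type (parental). All cells were grown in RPMI-1640 with fetal bovine serum, and RNA was polyA-selected. The labels do not say how the liver-derived cells were obtained, whether they are 1 clone, 1 derivation or several, or whether libraries of a group were separate cultures, so p-values measure only the spread between these libraries. The design text speaks of a further condition, not analysed here.

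Libraries held 28395265 to 53275252 counts, and 19255 genes passed a filter on low counts. Parental replicate 2 stood apart from both other parental libraries, with a chi-square statistic, divided by its degrees of freedom, of 55.3 and 61.8, against 2.24 between parental replicates 1 and 3 and 2.45 to 3.15 between liver-derived libraries. Prostate epithelial markers summed to 3506 to 3568 CPM (reads scaled to a common library size) in liver-derived and 3354 to 3700 CPM in parental libraries. Fibroblast and smooth muscle markers summed to 22.4 to 23.6 CPM in liver-derived and 23.6 to 27.6 CPM in parental libraries, most of it COL1A1, which did not pass. Of the other markers in that list, LUM fell, at 0.0383, 0.143 and 0.0206 CPM in liver-derived and 1.81, 1.48 and 1.95 CPM in parental libraries (edgeR adjusted p = 1.81e-05), as did COL3A1, at 0.79 ± 0.257 CPM in liver-derived and 1.66 ± 0.0492 CPM in parental cells (adjusted p = 0.00371); their part in the members' values was not tested. Endothelial markers summed to 0.44 to 0.68 CPM in liver-derived and 0.417 to 0.7 CPM in parental libraries, with CDH5 at 0 in all 6. Leukocyte markers summed to 11.8 to 19.7 CPM in liver-derived and 11.0 to 15.2 CPM in parental libraries, with CD3E at 0 in all 6. Hepatocyte markers summed to 65.3 to 68.7 CPM in liver-derived and 43.1 to 53.7 CPM in parental libraries, nearly all of it ALB. Of the 8, 6 were under 1 CPM in both groups. ALB rose (edgeR adjusted p = 0.00538), as did APOA1, at 0.628 ± 0.0807 CPM in liver-derived and 0.184 ± 0.0528 CPM in parental cells (adjusted p = 0.00167). ASGR1 fell, at 0.178 ± 0.0409 CPM in liver-derived and 1.47 ± 0.0714 CPM in parental cells (adjusted p = 1.16e-05).

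As background, a glycosaminoglycan chain is started on a serine of the core protein by a xylosyltransferase and a short linker, after which the next sugar decides between heparan sulfate (HS) and chondroitin or dermatan sulfate (CS, DS). Sulfotransferases then place sulfates at set positions, using the donor PAPS, and epimerases turn glucuronic into iduronic acid. The resulting sulfation pattern governs which growth factors, chemokines, adhesion proteins and proteases a cell surface binds. Syndecans span the membrane, while glypicans are held by a lipid anchor.

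Of the 60 members, 52 were tested, and 30 of them differed between the groups: 24 fell and 6 rose in liver-derived cells (edgeR quasi-likelihood test; the threshold is a Benjamini-Hochberg adjusted p of 0.05 over all genes tested). That was 57.7% of the members, beside 38.8% of all genes tested; the shares that fell were 46.2% of the members and 21.3% of all genes, and the shares that rose were 11.5% and 17.5%. A fall of at least 2-fold was fitted for 13 members and a rise of that size for 1, beside 9.32% and 4.49% of all genes. The groups did not overlap in CPM for 36 members, or 69.2%, beside 54.0% of all genes. The median log2 fold change, liver-derived over parental, was -0.33 over the members and -0.01 over all genes tested. In bulk RNA, fewer cells with a transcript and less of it per cell cannot be told apart.

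Level bore on how much weight a member's value can take. Among the 41 members with a mean of at least 1 CPM in the higher group, 18 fell, 5 rose and 18 did not pass, so that 56.1% were called, beside 42.8% of all genes at that level, of which 22.8% fell and 19.9% rose. The other 19 were under 1 CPM in both groups and rested on few reads. Of these, 11 were tested, with 6 falls and 1 rise, or 63.6% called, beside 38.8% of all genes tested. The share of all genes at that low level was not computed. Without parental replicate 2, 26 members were lower and 11 higher in liver-derived cells, and the counts over all genes also grew, to 6156 lower and 5714 higher; the 7 members added were SDC3, XYLT2, EXT2, EXTL2, CSGALNACT2, CHPF2 and CHST12.

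**Figure D1:**
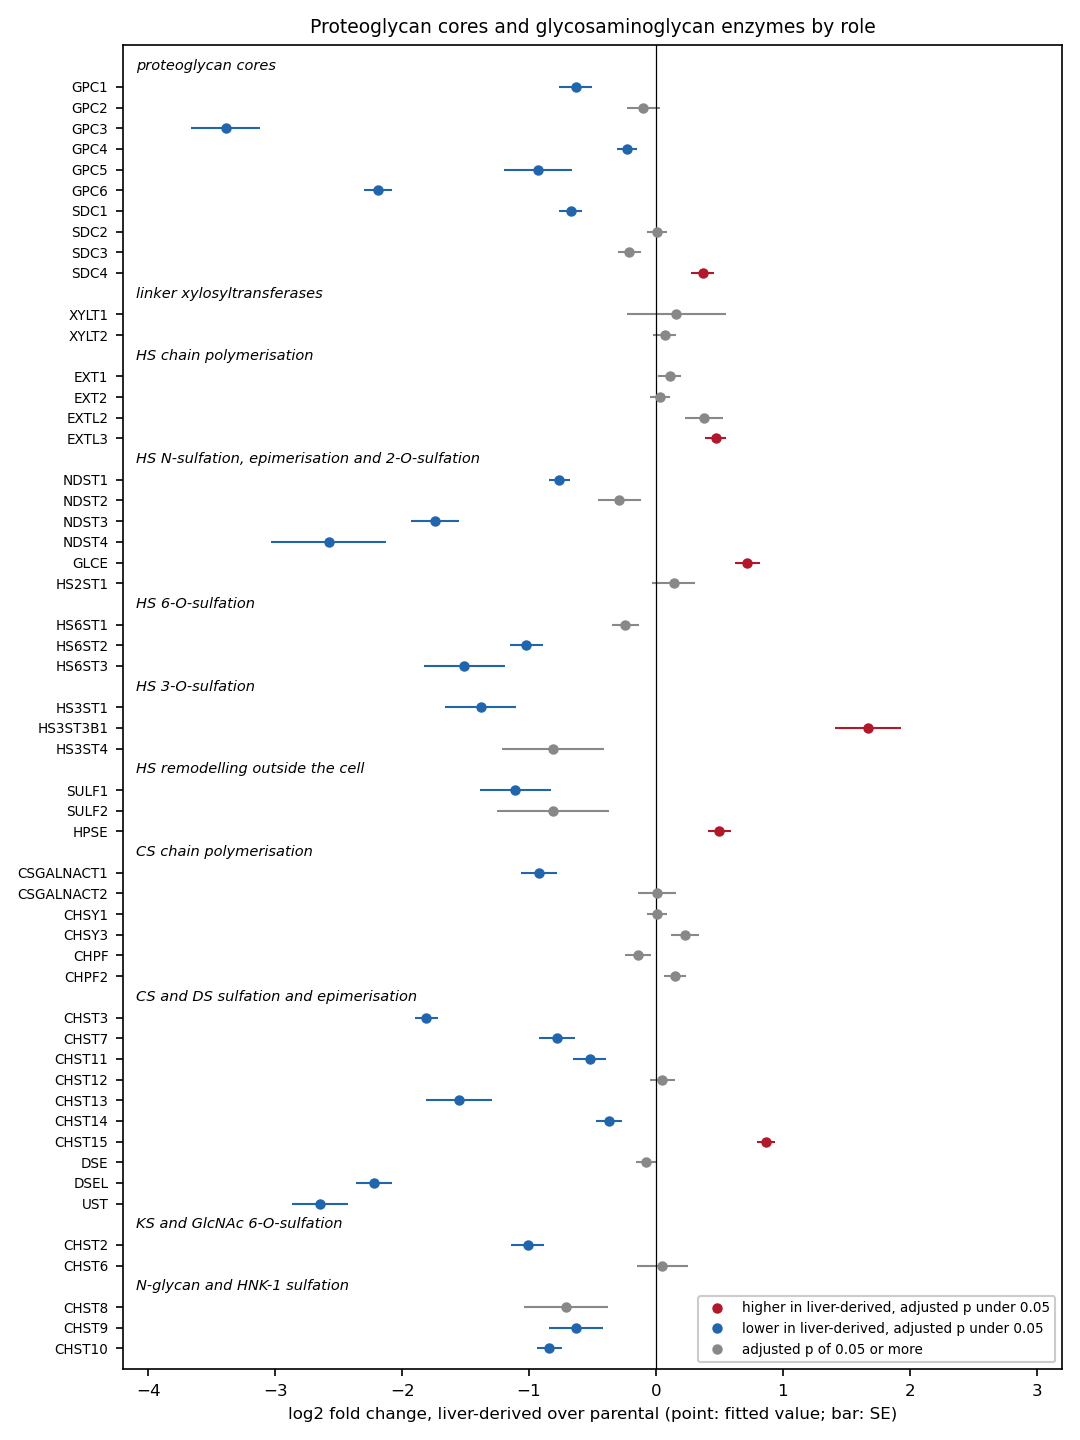
Fitted log2 fold change of the 52 tested members, liver-derived over parental, with its SE (n = 3 libraries per group), grouped by the enzyme's or core's role; colour shows the call at an adjusted p of 0.05. Calls to the left of 0 outnumber those to the right by 24 to 6, with the widest shifts at GPC3, UST, NDST4, DSEL and GPC6.

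Counts of calls differed by step of chain synthesis. Among the 10 enzymes that sulfate or epimerise CS and DS, 7 fell (70.0%), 1 rose (10.0%) and 2 did not pass. Their median log2 fold change was -0.65. Over all genes tested, 21.3% fell and 17.5% rose. Among the 6 enzymes that polymerise CS, 1 fell (16.7%) and 5 did not pass, with a median of 0.01, and neither xylosyltransferase passed. Of 24 HS enzymes 19 were tested, and 7 fell (36.8%), 4 rose (21.1%) and 8 did not pass. These are counts over few genes, and no difference between the roles was tested.

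The 3 CS and DS genes on which the account below turns most are UST and DSEL, which fell, and CHST15, which rose. Their promoter windows, 250 bases before to 50 after the start given by RefSeq (GRCh38.p14), are shown 5′ to 3′ on the gene's strand, with the GC box (GGGCGG, or its complement CCGCCC) in capitals. The UST window is chr6:148746780-148747079 (plus strand), the DSEL window chr18:67516671-67516970 (minus strand) and the CHST15 window chr10:124093549-124093848 (minus strand).
UST: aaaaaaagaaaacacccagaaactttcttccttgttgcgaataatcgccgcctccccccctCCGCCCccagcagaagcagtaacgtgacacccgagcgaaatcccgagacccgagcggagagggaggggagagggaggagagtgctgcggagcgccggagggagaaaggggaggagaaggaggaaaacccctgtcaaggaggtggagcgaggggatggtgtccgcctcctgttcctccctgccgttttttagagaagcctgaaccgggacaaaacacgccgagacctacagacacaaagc
DSEL: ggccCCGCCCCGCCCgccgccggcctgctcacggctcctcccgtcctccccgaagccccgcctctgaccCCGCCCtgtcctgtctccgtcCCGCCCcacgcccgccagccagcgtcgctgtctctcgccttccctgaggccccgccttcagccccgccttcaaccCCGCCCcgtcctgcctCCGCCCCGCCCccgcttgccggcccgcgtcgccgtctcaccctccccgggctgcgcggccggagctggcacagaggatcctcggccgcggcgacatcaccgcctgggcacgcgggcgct
CHST15: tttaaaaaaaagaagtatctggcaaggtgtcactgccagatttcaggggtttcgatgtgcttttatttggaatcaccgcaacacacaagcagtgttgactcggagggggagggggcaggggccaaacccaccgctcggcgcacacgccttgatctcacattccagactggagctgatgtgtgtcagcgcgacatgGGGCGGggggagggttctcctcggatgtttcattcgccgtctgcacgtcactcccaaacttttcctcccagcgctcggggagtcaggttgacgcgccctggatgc
The windows hold 1, 7 and 1 GC boxes in UST, DSEL and CHST15, counting overlapping matches on both strands. None holds AGAACA or TGTTCT (the half-site bound by the androgen receptor), TATAAA or TTTATA (the TATA box), or CCAAT or ATTGG (the CCAAT box). A GC box stood in a window of 45 of the 52 members found in the table (86.5%), beside 48.3% of 27305 genes, and the median GC content of the windows was 68.7% for members and 58.7% for all. The androgen half-site stood in 5 of the 52 (9.62%), beside 17.5% of genes, the TATA box in 5 (9.62%), beside 14.0%, and the CCAAT box in 14 (26.9%), beside 39.7%. These are matches of letters, not measured binding. The gene starts in the authors' count files are not those of RefSeq; UST is counted from base 148747328, downstream of its window.

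Transcripts of the enzymes that sulfate and epimerise CS and DS mostly fell, with the 7 falls and 1 rise counted above. UST, the uronyl 2-O-sulfotransferase that sulfates the uronic acids of DS and CS (ENSG00000111962; chromosome 6, 148747328 to 149076990, GRCh38, plus strand), had 0.555, 1.29 and 1.03 CPM in liver-derived replicates 1 to 3, against 5.68, 5.99 and 5.55 CPM in parental replicates 1 to 3. Every liver-derived library lay far below every parental one, with liver-derived replicate 1 the lowest. UST averaged 0.958 ± 0.372 CPM in liver-derived and 5.74 ± 0.226 CPM in parental cells (SD, n = 3 each), and it fell 6.28-fold (log2 fold change -2.65, SE 0.22, edgeR adjusted p = 2.23e-05).

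DSEL is one of both epimerases that turn glucuronic into iduronic acid and so make DS out of CS (ENSG00000171451; chromosome 18, 67506582 to 67516980, minus strand). It had 9.0, 8.13 and 8.88 CPM in liver-derived replicates, against 45.5, 32.2 and 44.1 CPM in parental replicates. The groups were far apart, and parental replicate 2 was the lowest of its group. DSEL averaged 8.67 ± 0.473 CPM in liver-derived and 40.6 ± 7.33 CPM in parental cells (SD, n = 3 each), a fall of 4.67-fold (log2 fold change -2.22, SE 0.14, edgeR adjusted p = 3.39e-06). The other epimerase, DSE, had a log2 fold change of -0.08 (edgeR adjusted p = 0.476), and its count may hold reads of TSPYL1 on the opposite strand, which shares 3.9% of its exonic length.

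On the TPM scale of the authors' deposited table, which corrects for gene length, DSEL and DSE stood at 3.19 ± 0.17 and 2.01 ± 0.0481 TPM in liver-derived cells and at 15.5 ± 3.36 and 2.19 ± 0.115 TPM in parental cells (SD, n = 3 each). The ratio of DSEL to DSE was 1.61, 1.52 and 1.63 in liver-derived libraries, against 7.76, 5.64 and 7.69 in parental libraries. By TPM, DSEL was thus the higher of both epimerase transcripts in every library, by a smaller margin in liver-derived cells. In liver-derived cells that order rests on the exonic lengths used for TPM, 9531 bases for DSEL and 15016 for DSE. In CPM, DSE had 8.81, 8.41 and 8.57 in liver-derived replicates, close to the 9.0, 8.13 and 8.88 of DSEL and above it in replicate 2. CHST14, which sulfates DS at the 4-O position of N-acetylgalactosamine after epimerisation, was the highest of the CS and DS sulfation genes, at 33.3, 36.1 and 35.4 TPM in liver-derived libraries, against 44.2, 50.8 and 43.7 TPM in parental libraries. It fell by 0.37 on the log2 scale (SE 0.10, edgeR adjusted p = 0.0182), and that call was lost without liver-derived replicate 1, 2 or 3 (adjusted p = 0.0892, 0.0591 and 0.0613).

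CHST3 adds sulfate to the 6-O position of N-acetylgalactosamine in chondroitin (ENSG00000122863; chromosome 10, 71964365 to 72013564, plus strand). It had 8.12, 7.62 and 7.7 CPM in liver-derived replicates, against 27.3, 29 and 25.7 CPM in parental replicates. The groups were tight and wide apart: 7.82 ± 0.265 CPM in liver-derived and 27.4 ± 1.67 CPM in parental cells (SD, n = 3 each), 3.49-fold lower (log2 fold change -1.81, SE 0.09, edgeR adjusted p = 5.1e-07). CHST7, the other chondroitin 6-O-sulfotransferase, fell by 0.78 on the log2 scale (edgeR adjusted p = 0.00253), at 1.94 ± 0.33 CPM in liver-derived and 3.39 ± 0.17 CPM in parental cells.

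CHST15 moved the other way. It adds a further 6-O-sulfate to chondroitin already sulfated at 4-O, which gives the disulfated units of CS-E (ENSG00000182022; chromosome 10, 124007666 to 124093607, minus strand). It had 41.7, 39.8 and 42.3 CPM in liver-derived replicates, against 22.6, 22.6 and 22.8 CPM in parental replicates. CHST15 was the only CS or DS enzyme to rise: 41.3 ± 1.34 CPM in liver-derived and 22.7 ± 0.137 CPM in parental cells (SD, n = 3 each), 1.82-fold higher (log2 fold change 0.87, SE 0.07, edgeR adjusted p = 1.64e-05). Without parental replicate 2, CHPF2 and CHST12 passed as higher too.

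Chondroitin 4-O-sulfation is done by CHST11, CHST12 and CHST13. CHST12 had the most RNA of them per length, at 5.26 ± 0.177 TPM in liver-derived and 5.2 ± 0.467 TPM in parental cells, and did not pass (log2 fold change 0.05, edgeR adjusted p = 0.724; 0.17 and 0.00616 without parental replicate 2). CHST11 fell by 0.52 on the log2 scale (edgeR adjusted p = 0.00988; 0.0517 without liver-derived replicate 1), and CHST13, at 0.337 ± 0.0253 CPM in liver-derived and 0.992 ± 0.217 CPM in parental cells, fell by 1.55 (adjusted p = 0.00135). The summed TPM of CHST3 and CHST7 over that of CHST11, CHST12 and CHST13 was 0.978, 0.801 and 0.843 in liver-derived libraries, against 2.03, 1.75 and 2.01 in parental libraries. The CHST3 and CHST7 sum thus exceeded the other in every parental library and in no liver-derived one, and no test was made on this ratio. That order rests on the exonic lengths used for TPM, 16143 bases for CHST12, against 6970 for CHST3 and 2289 for CHST7. In CPM, parental cells had 23.3 ± 3.15 for CHST12 and 27.4 ± 1.67 for CHST3. CHST14 and CHST15, which act on DS and on chains already sulfated at 4-O, are in neither sum. The ratio thus does not rank all transcripts for 6-O- against 4-O-sulfation. CHST15 over CHST3 was 5.47, 5.55 and 5.84 in liver-derived libraries, against 0.88, 0.826 and 0.944 in parental libraries, so the order of these transcripts differed between the groups.

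**Figure D2:**
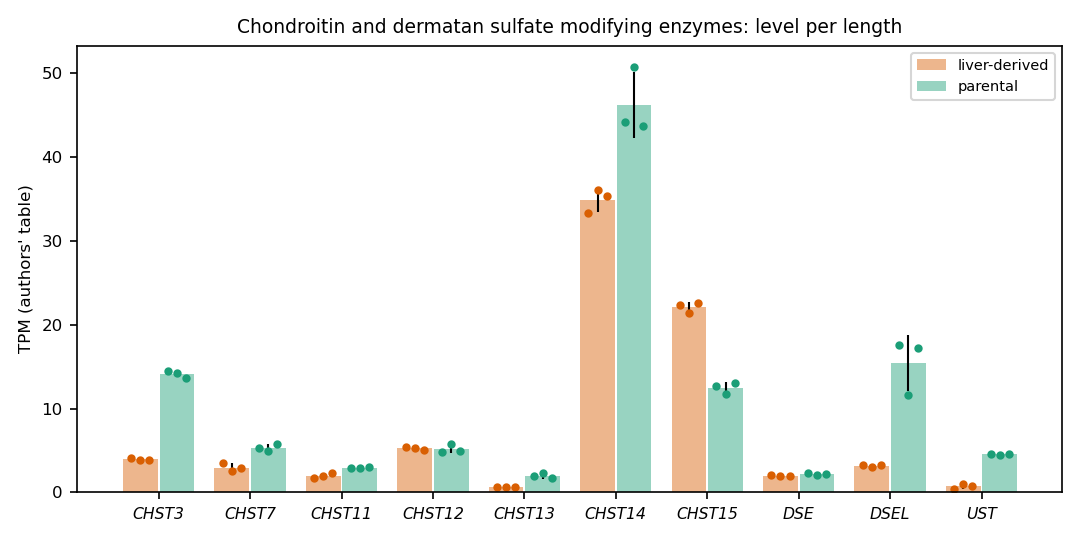
TPM of the 10 CS and DS sulfation and epimerisation genes from the authors' deposited table; bars are means of 3 libraries per group, points single libraries and error bars SD, with liver-derived left of parental. CHST3, DSEL and UST are lower in liver-derived libraries, CHST15 is higher, and CHST14 has the highest level in both groups.

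Of the 6 enzymes that start and extend the chondroitin chain, 5 did not pass. CHPF, a subunit of the chondroitin polymerase, had the most RNA per length of them, at 106, 103 and 101 TPM in liver-derived libraries, against 111, 130 and 109 TPM in parental libraries. Its log2 fold change was -0.14 (edgeR adjusted p = 0.307). The remaining subunits CHPF2, CHSY1 and CHSY3 had log2 fold changes of 0.15, 0.01 and 0.23, and CSGALNACT2, which adds the first N-acetylgalactosamine, 0.01 (adjusted p of 0.137 to 0.966). CHPF and CHPF2 overlap TMEM198 and SMARCD3 on the opposite strand over 3.7% and 1.5% of their length. CSGALNACT1, with the same activity as CSGALNACT2, was the exception and fell by 0.92 on the log2 scale, at 2.77 ± 0.476 CPM in liver-derived and 5.27 ± 0.0814 CPM in parental cells (SD, n = 3 each; edgeR adjusted p = 0.000697). Without parental replicate 2, CHPF2 passed as higher (0.24, adjusted p = 6.13e-08) and CSGALNACT2 as lower (-0.16, adjusted p = 0.0246). The 6 genes summed to 211 ± 1.49 TPM in liver-derived and 222 ± 8.9 TPM in parental cells.

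Proteoglycan cores fell more often than they rose: of 10, 6 fell (60.0%), 1 rose (10.0%) and 3 did not pass. The shares over all genes tested were 21.3% and 17.5%. GPC3, a glypican known as a modulator of Wnt and Hedgehog signalling (ENSG00000147257; chromosome X, 133535745 to 133985895, minus strand), had 0.153, 0.322 and 0.288 CPM in liver-derived replicates, against 2.43, 3.09 and 2.24 CPM in parental replicates. That is 8, 9 and 14 reads in liver-derived libraries and 118, 140 and 118 reads in parental libraries, low in every library and nearly gone from the liver-derived ones. GPC3 fell 10.5-fold (log2 fold change -3.39, SE 0.27, edgeR adjusted p = 1.49e-05), the largest fitted change among the members tested.

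GPC6, a glypican that supports growth factor signalling (ENSG00000183098; chromosome 13, 93226842 to 94407401, plus strand), had 7.24, 6.62 and 6.43 CPM in liver-derived replicates, against 32.5, 27.0 and 33.5 CPM in parental replicates. All 3 liver-derived values lay well under the parental ones. GPC6 averaged 6.76 ± 0.423 CPM in liver-derived and 31.0 ± 3.5 CPM in parental cells (SD, n = 3 each), 4.57-fold lower (log2 fold change -2.19, SE 0.11, edgeR adjusted p = 8.59e-07). An opposite-strand gene (ENSG00000278177) covers 7.4% of its length and held few reads.

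GPC1 fell by 0.63 (edgeR adjusted p = 0.0045), GPC4 by 0.23 (adjusted p = 0.0361) and GPC5 by 0.93 (adjusted p = 0.0233) on the log2 scale, while GPC2 had a log2 fold change of -0.10 (adjusted p = 0.59). The GPC4 call was lost with DESeq2 (adjusted p = 0.0542) and without any single library other than parental replicate 2 (adjusted p = 0.0638 to 0.172). GPC5, under 1 CPM in both groups, lost its call without liver-derived replicate 1 or 3 or parental replicate 1 (0.0882, 0.0516 and 0.0579), and with limma on unfiltered log2(TPM + 1) (0.0619). Of the summed glypican TPM, GPC6 made up 10.9% ± 1.08 in liver-derived and 29.1% ± 4.23 in parental cells, and GPC4 46.1% ± 0.652 and 31.6% ± 0.78 (SD, n = 3 each).

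Among the syndecans, SDC1, the main epithelial syndecan (ENSG00000115884; chromosome 2, 20200797 to 20225433, minus strand), had 55.5, 53.7 and 57.9 TPM in liver-derived libraries, against 88.2, 96.9 and 87.5 TPM in parental libraries. It stood highest of the 10 syndecans and glypicans per length and fell by 0.67 on the log2 scale (SE 0.09, edgeR adjusted p = 0.00036). SDC4, a syndecan of focal adhesions, was the only core to rise, at 36.2, 36.6 and 37.0 CPM in liver-derived replicates, against 29.9, 25.0 and 30.0 CPM in parental replicates (log2 fold change 0.37, SE 0.09, edgeR adjusted p = 0.0101). Parental replicate 2 was its lowest library, and the call was lost with limma on log2(TPM + 0.1) (adjusted p = 0.0515) and on unfiltered log2(TPM + 1) (0.0751). SDC1 made up 34.0% ± 0.798 of the syndecan TPM in liver-derived and 46.8% ± 3.08 in parental cells, and SDC4 30.0% ± 0.424 and 20.2% ± 2.75 (SD, n = 3 each).

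SDC2 and SDC3, the remaining syndecans, had log2 fold changes of 0.01 (edgeR adjusted p = 0.949) and -0.21 (adjusted p = 0.095), and SDC3 passed as lower without parental replicate 2 (-0.12, adjusted p = 0.00831). Both families had a smaller sum in liver-derived cells: 164 ± 3.15 TPM of syndecans in liver-derived and 194 ± 2.88 TPM in parental cells, and 33.8 ± 1.94 TPM of glypicans in liver-derived and 59.6 ± 1.19 TPM in parental cells (SD, n = 3 each). Glypicans made up 16.8, 18.2 and 16.4% of the summed core TPM in liver-derived libraries, against 22.9, 23.5 and 24.0% in parental libraries.

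**Figure D3:**
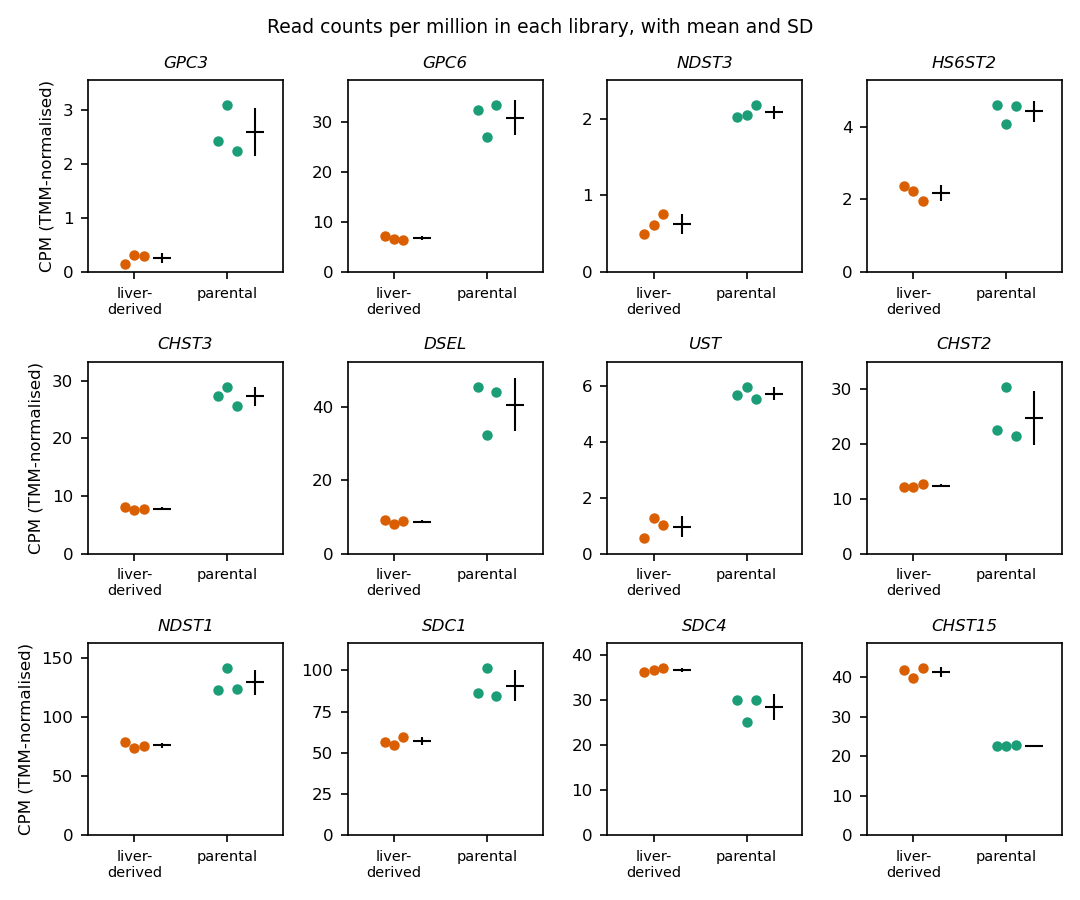
CPM in each library of 12 members, liver-derived left and parental right, on linear axes with a scale of their own; points are libraries, bars mean and SD (n = 3 per group). The groups do not overlap in any panel: SDC4 and CHST15 are higher in liver-derived libraries, and the other 10 are lower.

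Heparan sulfate N-sulfation, the first step of HS modification, on which the later ones depend, rests on the NDST genes. NDST1 (ENSG00000070614; chromosome 5, 150485818 to 150558211, plus strand) had 29, 27.3 and 27.8 TPM in liver-derived libraries, against 47.5, 50.9 and 48.1 TPM in parental libraries. It supplied 89.1% ± 1.76 of the summed NDST TPM in liver-derived and 89.8% ± 0.471 in parental cells (SD, n = 3 each), so the sum followed it. NDST1 fell by 0.76 on the log2 scale (SE 0.08, edgeR adjusted p = 7.78e-05), at 76.0 ± 2.35 CPM in liver-derived and 129 ± 10.5 CPM in parental cells.

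NDST3, a weakly expressed enzyme of the same kind, had 0.498, 0.608 and 0.762 CPM in liver-derived replicates, against 2.02, 2.05 and 2.18 CPM in parental replicates, with wide separation. It fell 3.34-fold (log2 fold change -1.74, SE 0.19, edgeR adjusted p = 0.000109). NDST4 fell by 2.58 on the log2 scale (adjusted p = 0.0018) from few reads, 8, 1 and 3 in liver-derived and 33, 19 and 31 in parental libraries. NDST2 had a log2 fold change of -0.29 (adjusted p = 0.211), and 82.9% of its exonic length is shared with another gene on the same strand (ENSG00000272916), so its count is uncertain.

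GLCE, the epimerase of HS, rose by 0.72 on the log2 scale (SE 0.10, edgeR adjusted p = 0.000566), at 17.0, 18.0 and 15.9 CPM in liver-derived replicates, against 11.1, 8.97 and 10.7 CPM in parental replicates. Its groups did not overlap, so epimerase transcripts differed in opposite directions, GLCE higher and DSEL lower in liver-derived cells. HS2ST1, the 2-O-sulfotransferase that acts after GLCE, did not pass (0.14, adjusted p = 0.568). Its parental replicate 2 held 17.8 CPM beside 30.1 and 28.0 CPM in the other parental libraries, and without it the log2 fold change was -0.07 (adjusted p = 0.271).

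Of the 6-O-sulfotransferases of HS, HS6ST1 had the most RNA, at 12.2, 12 and 11.9 TPM in liver-derived libraries, against 13.2, 16.1 and 14.5 TPM in parental libraries. It did not pass (log2 fold change -0.24, edgeR adjusted p = 0.102), but was called lower without parental replicate 1 (adjusted p = 0.0469). HS6ST2 fell 2.03-fold, with 2.37, 2.22 and 1.94 CPM in liver-derived replicates, against 4.59, 4.08 and 4.57 CPM in parental replicates (log2 fold change -1.02, SE 0.13, adjusted p = 0.000214). HS6ST3 fell by 1.51 on the log2 scale (adjusted p = 0.00542) from under 1 CPM in both groups. None of the 3 overlapped between the groups, and HS6ST1 made up 88.0% ± 0.887 of their summed TPM in liver-derived and 80.5% ± 2.87 in parental cells (SD, n = 3 each).

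The 3-O-sulfotransferases, which make rare units such as the antithrombin site, were all under 1 CPM, and 4 of 7 were not tested (HS3ST2, HS3ST3A1, HS3ST5 and HS3ST6). HS3ST3B1 was the only member to rise at least 2-fold, with 35, 22 and 44 reads in liver-derived libraries, against 11, 11 and 14 reads in parental libraries (log2 fold change 1.67, SE 0.26, edgeR adjusted p = 0.000919). Its count is uncertain, since 8.31% of its 100-base stretches also occur in HS3ST3A1. HS3ST1 fell by 1.38 on the log2 scale (adjusted p = 0.00442). HS3ST4, the highest of the family over both groups, had 0.239, 0.224 and 0.426 TPM in liver-derived libraries, against 0.382, 0.784 and 0.48 TPM in parental libraries, which overlapped (log2 fold change -0.81, adjusted p = 0.147). HS3ST5, too low for the test, had 2, 3 and 2 reads in liver-derived libraries, against 9, 9 and 12 reads in parental libraries.

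HPSE encodes heparanase, the enzyme that cleaves HS chains. It had 10.3, 11.4 and 10.5 TPM in liver-derived libraries, against 8.21, 6.75 and 8.41 TPM in parental libraries. HPSE rose 1.42-fold without overlap (log2 fold change 0.50, SE 0.09, edgeR adjusted p = 0.0023). The endosulfatases SULF1 and SULF2, which remove 6-O-sulfate outside the cell, were both under 1 CPM. SULF1 fell by 1.11 on the log2 scale (adjusted p = 0.0128; 0.0625 with liver-derived replicate 1 left out and 0.0549 with parental replicate 3 left out, and 0.0796 by limma on unfiltered log2(TPM + 1)). SULF2 did not pass (-0.81, adjusted p = 0.177), and its 13.0 reads a library on average may hold reads of NCOA3, which overlaps 1.4% of its length on the opposite strand and averaged 1582 reads.

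Of the 4 tested genes that start and polymerise HS, 1 rose and 3 did not pass, or 25.0% called, beside 38.8% of all genes. EXTL3, which adds the first N-acetylglucosamine of the HS chain, had 137, 131 and 129 CPM in liver-derived replicates, against 92.1, 103 and 91.2 CPM in parental replicates, and rose 1.39-fold (log2 fold change 0.47, SE 0.08, edgeR adjusted p = 0.00109). EXTL3-AS1 overlaps 3.1% of its length on the opposite strand and held few reads. EXT2, a subunit of the HS polymerase, had the most RNA per length of them, with 53.3, 52.9 and 51.1 TPM in liver-derived libraries, against 50.6, 54.2 and 53.0 TPM in parental libraries. These EXT2 values overlapped (log2 fold change 0.03, adjusted p = 0.764; 0.09 and 0.0127 without parental replicate 2). Its partner EXT1 had a log2 fold change of 0.11 (adjusted p = 0.356), and EXTL1 was not tested.

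EXTL2, which can cap a chain at its linker, had a log2 fold change of 0.38 (edgeR adjusted p = 0.069), and passed as higher without parental replicate 2 (0.22, adjusted p = 0.00163) and without parental replicate 3 (0.51, adjusted p = 0.0215). The polymerising genes of HS summed to 108 ± 2.35 TPM in liver-derived and 95.9 ± 2.4 TPM in parental cells (SD, n = 3 each). XYLT2, a xylosyltransferase that starts chains of both kinds, had 13.8, 14.2 and 13.7 TPM in liver-derived libraries, against 13.4, 14.3 and 12.8 TPM in parental libraries (log2 fold change 0.07, adjusted p = 0.55; 0.15 and 0.0146 without parental replicate 2). A gene on the opposite strand (ENSG00000279792) overlaps 2.9% of its length. XYLT1 was under 1 CPM (0.16, adjusted p = 0.795).

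The remaining members sulfate other glycans. CHST2, which sulfates N-acetylglucosamine in keratan sulfate and in selectin ligands, had 12.2, 12.2 and 12.7 CPM in liver-derived replicates, against 22.5, 30.5 and 21.5 CPM in parental replicates, where replicate 2 was highest. It fell 2.01-fold (log2 fold change -1.01, SE 0.13, edgeR adjusted p = 0.000383). Its TPM was 9.47 ± 0.212 in liver-derived and 19.5 ± 2.97 in parental cells, the highest of its class. CHST6 did not pass (0.05, adjusted p = 0.854), and CHST1, CHST4 and CHST5 were not tested; CHST5 and CHST6 share some sequence.

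CHST10, which makes the HNK-1 epitope of neural adhesion molecules, had 4.99, 5.98 and 5.73 TPM in liver-derived libraries, against 10.2, 10.5 and 9.95 TPM in parental libraries, with no overlap. It fell by 0.84 on the log2 scale (SE 0.10, edgeR adjusted p = 0.000216). Of both enzymes that sulfate N-acetylgalactosamine on N-glycans, CHST9 fell by 0.63 (adjusted p = 0.0382) and CHST8 did not pass (-0.71, adjusted p = 0.118). The CHST9 call was lost without liver-derived replicate 1 or 3 or parental replicate 3 (adjusted p = 0.147, 0.13 and 0.125), with DESeq2 (0.088) and with limma on unfiltered log2(TPM + 1) (0.215).

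Some members lie close together in the genome, and their values are not independent looks at separate places. HS6ST2, GPC4 and GPC3 lie within 2 Mb on chromosome X, and all 3 fell; with CHST7, all 4 members on that chromosome fell. GPC5, GPC6 and HS6ST3, the 3 members on chromosome 13, also fell. The 2 members on chromosome 3, the 2 on chromosome 18 and the 1 on chromosome 12 fell as well. Over all genes tested 21.3% fell, and the share among all genes of each chromosome was not computed. Of 7 members on chromosome 16, 0 were called by edgeR, though only 3 of them were tested. Around GPC5, the 9 tested genes within 2 Mb had a median log2 fold change of -1.42, and around GPC6 the 14 had -0.49, beside -0.93 and -2.19 for the genes themselves. Other members count among such neighbours: GPC6 around GPC5, GPC5 and HS6ST3 around GPC6, and HS6ST2, GPC4 and GPC3 around one another. On chromosome X, the 25 tested genes around GPC4 had a median of -0.25, beside -0.23 for GPC4, so its fall was no larger than theirs. Around HS6ST2, GPC3 and CHST7 the medians were -0.24 (20 genes), -0.19 (35 genes) and -0.12 (41 genes), beside -1.02, -3.39 and -0.78. Lower medians were also found elsewhere: -0.43 (5 genes) around DSEL, -0.47 (10 genes) around SULF1 and -0.34 (31 genes) around CHST13. These stood beside -2.22, -1.11 and -1.55 for the genes themselves. Around UST and CHST3 the medians were 0.05 (23 genes) and 0.25 (62 genes), beside -2.65 and -1.81. Around SDC1 and HS3ST1, which also fell, they were 0.15 (14 genes) and 0.25 (4 genes), beside -0.67 and -1.38. How far a shift shared with neighbouring genes enters these members' values was not tested.

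CHST3 has a neighbour among the proteoglycan genes outside the set, SPOCK2, a secreted proteoglycan of the testican family whose gene lies 45471 bases downstream on chromosome 10. SPOCK2 rose 5.21-fold, at 112, 113 and 110 CPM (111 ± 1.4, SD) in liver-derived replicates, against 21.1, 23.1 and 20.0 CPM (21.4 ± 1.57) in parental replicates (log2 fold change 2.38, SE 0.08, edgeR adjusted p = 7.91e-08, n = 3 each). The pair thus moved in opposite directions, and was singled out after its values were seen.

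The pathway beyond the members was read through 6 related lists of 66 genes, of which 63 were tested, with 21 rises and 12 falls, or 52.4% called beside 38.8% of all genes. Of 8 genes of sulfate supply, 3 rose and 0 fell, or 37.5% called, near the share of all genes; both genes that encode synthases of the sulfate donor PAPS were among the 3. PAPSS1, a PAPS synthase, had 639.1, 639.2 and 641.2 CPM in liver-derived replicates, against 261.0, 250.1 and 260.7 CPM in parental replicates, and rose 2.49-fold (log2 fold change 1.31, SE 0.06, edgeR adjusted p = 4.44e-07). Its values hardly varied within groups and did not overlap. PAPSS2, the other synthase, rose by 0.95 (adjusted p = 0.000162) and SLC26A2, a sulfate importer that overlaps TIGD6, by 0.56 (adjusted p = 0.00591). The other 5 of the 8 genes did not pass, among them the Golgi PAPS transporter SLC35B2 (-0.07, adjusted p = 0.563).

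Of 13 genes of UDP-sugar supply, 5 rose and 2 fell, or 53.8% called beside 38.8% of all genes. GFPT1, the entry enzyme of hexosamine synthesis, rose 2.0-fold, at 221 ± 1.11 CPM in liver-derived and 110.3 ± 15.5 CPM in parental cells (SD, n = 3 each; log2 fold change 1.0, SE 0.10, edgeR adjusted p = 7.09e-05). Its isoenzyme GFPT2, at 1.24 ± 0.385 CPM in liver-derived and 2.59 ± 0.426 CPM in parental cells, fell by 1.12 (adjusted p = 0.00478). UXS1, which makes the UDP-xylose that starts the linker, rose by 0.80 (adjusted p = 3.89e-05). The 5 linker enzymes outside the set all missed the threshold in edgeR, with 0 under an unadjusted p of 0.05. Without parental replicate 2, 3 of these linker genes were higher and 1 lower, and UDP-sugar genes gave 7 and 4.

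Other proteoglycan cores, which share these enzymes, gave 8 rises and 3 falls among 17 tested of 19. That was 64.7% called, beside 38.8% of all genes. PTPRZ1, a receptor phosphatase that can carry CS, had 215, 217 and 213 CPM in liver-derived replicates, against 1.91, 1.39 and 2.09 CPM in parental replicates (log2 fold change 6.89, SE 0.13, edgeR adjusted p = 7.95e-09). The libraries held 11250, 6063 and 10346 reads of it in liver-derived cells and 93, 63 and 110 in parental cells, so it was low but detected in every parental library. CSPG4, a membrane CS proteoglycan, rose 6.19-fold, at 27.5 ± 1.02 CPM in liver-derived and 4.45 ± 0.293 CPM in parental cells (SD, n = 3 each; log2 fold change 2.63, SE 0.09, adjusted p = 7.91e-08).

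HSPG2, the basement membrane HS proteoglycan perlecan, named after its values were seen, rose by 1.57 (edgeR adjusted p = 2.23e-05). The other proteoglycan cores that fell were NCAN (-1.41, adjusted p = 0.00393), BCAN (-1.31, adjusted p = 0.00234) and CSPG5 (-0.76, adjusted p = 0.000715). NCAN and BCAN were low, at 1.13 ± 0.283 and 2.27 ± 0.604 CPM in parental cells. CD44, a hyaluronan receptor that can carry chains, rose by 0.31 (adjusted p = 0.0137), a call lost without liver-derived replicate 2 or 3 (0.0575 and 0.0688). SRGN, the intracellular proteoglycan serglycin, had 10.8, 27.1 and 10.3 CPM in liver-derived replicates, against 13.4, 12.5 and 13.9 CPM in parental replicates, and did not pass. Its high library, liver-derived replicate 2, also held the most PTPRC and LYZ of its group; the part of other cells was not tested.

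Among 15 lysosomal degradation genes 4 rose and 4 fell, or 53.3% called beside 38.8% of all genes. GUSB, the β-glucuronidase of this pathway, rose 2.54-fold, at 256 ± 8.35 CPM in liver-derived and 101 ± 11.6 CPM in parental cells (SD, n = 3 each; log2 fold change 1.34, SE 0.09, edgeR adjusted p = 5.38e-06). GALNS, which removes 6-O-sulfate from galactosamine and galactose, fell by 0.76 (adjusted p = 0.000959). The hyaluronidase HYAL1 fell by 0.87 (adjusted p = 0.0121; 0.057 without liver-derived replicate 3). The lysosomal counts shifted with single libraries, with 3 rises and 1 fall without liver-derived replicate 3, 3 and 2 without liver-derived replicate 1 or 2 or parental replicate 1, and 7 and 6 without parental replicate 2.

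Of 6 genes of hyaluronan and keratan backbone synthesis, 5 were tested, with 1 rise (20.0%) and 3 falls (60.0%). Over all genes tested, 17.5% rose and 21.3% fell, and the shares of this list rest on few genes. B4GALT1, a galactosyltransferase of many glycans, rose 3.12-fold, at 272 ± 4.83 CPM in liver-derived and 87.1 ± 2.85 CPM in parental cells (SD, n = 3 each; log2 fold change 1.64, SE 0.07, edgeR adjusted p = 1.83e-07). B4GALT4, the galactosyltransferase linked to keratan sulfate, fell by 0.45 (adjusted p = 0.00143). HAS3, a hyaluronan synthase that overlaps the highly expressed CHTF8 on the opposite strand, fell by 0.70 (adjusted p = 0.00302).

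**Figure D4:**
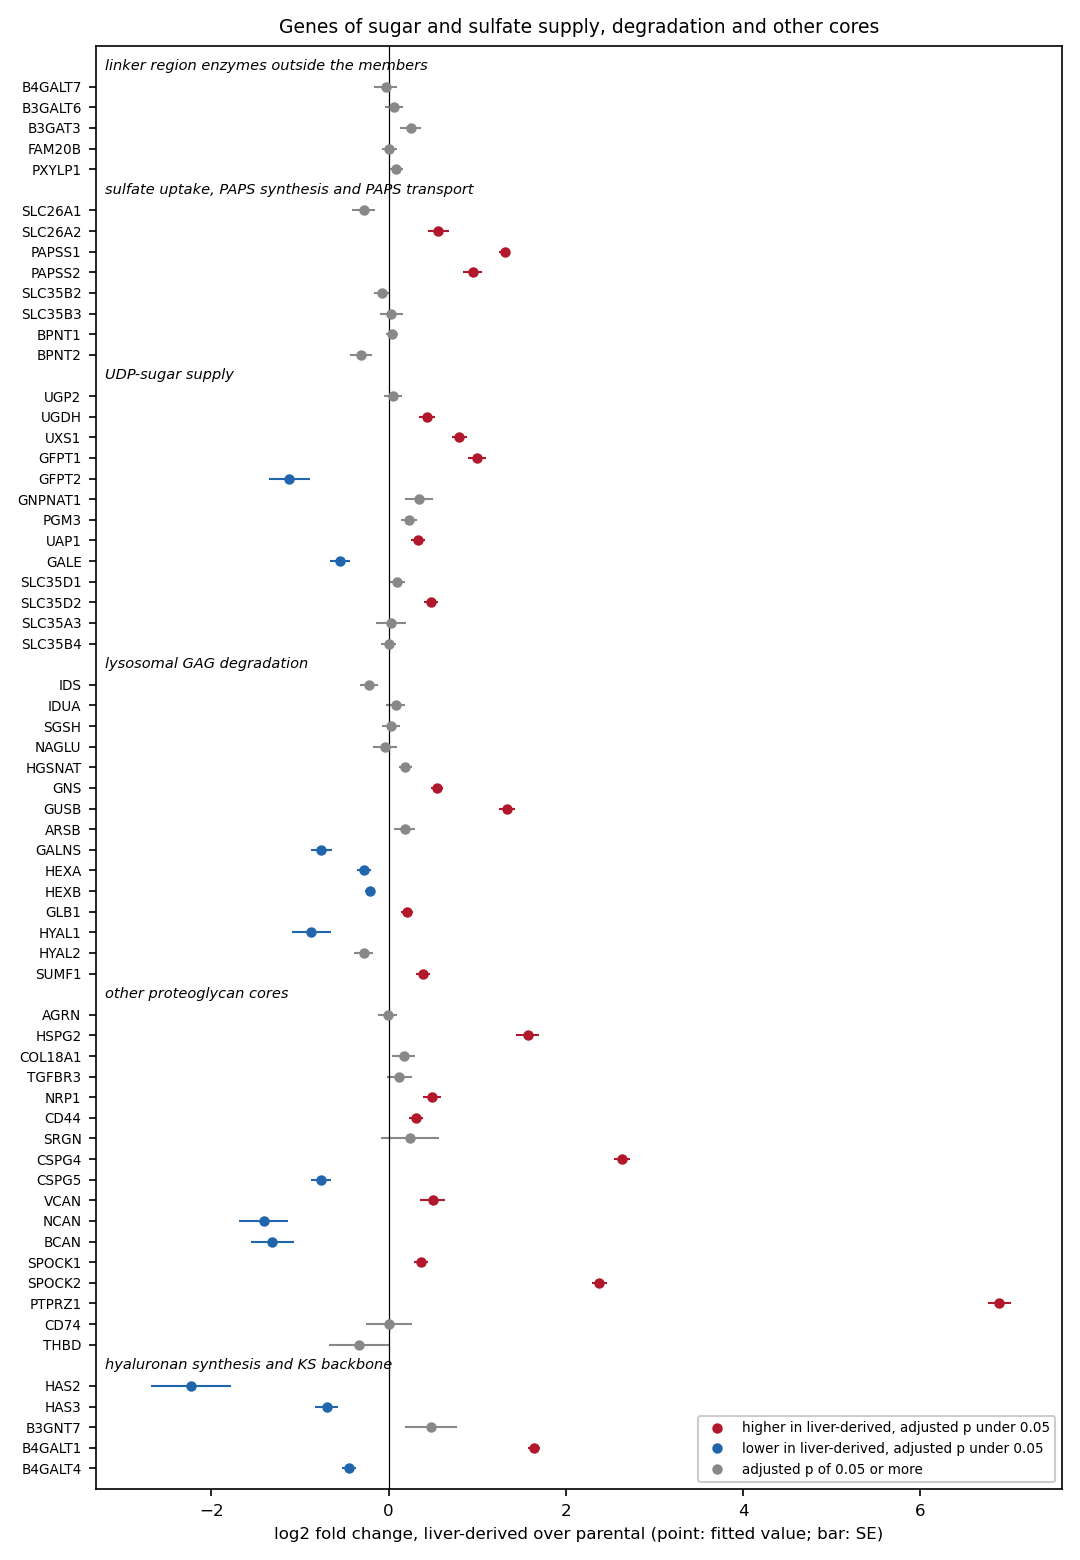
Fitted log2 fold change, liver-derived over parental, with its SE (n = 3 libraries per group), of the 63 tested genes in the 6 related lists; colour shows the call at an adjusted p of 0.05. PTPRZ1, CSPG4, SPOCK2, B4GALT1 and PAPSS1 lie to the right of 0, and all 5 linker enzymes lie near 0.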

How the data were processed

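PolyA-selected RNA was read in pairs on a NovaSeq sequencer, according to the labels' protocols. The submitters' processing notes name Trimmomatic 0.36, STAR 2.5.2b, featureCounts, Subread 1.5.2 and the build GRCh38. The strand setting, the annotation release, the parameters and how pairs were counted were not given in the sources used here. Raw counts for every gene and library were deposited by the authors, as was 1 table of TPM; TPM recomputed from the counts lay within a relative 1e-04 of the deposited TPM, and 391182 trailing rows of that table without a gene were left out. Because the strand setting is unknown, members are given with the main gene that overlaps them and has reads.

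Low counts were removed with filterByExpr, libraries were scaled by TMM, and groups were compared with edgeR 4.0.16 (R 4.3.3) by the robust quasi-likelihood test, with Benjamini-Hochberg adjustment over all 19255 genes; the test was checked on simulated counts. CPM values are TMM-scaled, and SD is over 3 libraries. Sums and ratios of TPM are descriptions. Alternatives were other scalings and filters, DESeq2 1.42.0, limma 3.58.1 on counts (voom) and on log2(TPM + 1) or log2(TPM + 0.1), each library left out, both second replicates left out, and the replicate number as a block. The SE is that of the fitted log2 fold change.

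The members and the gene lists were chosen with earlier results of these data known. Values in every library are given for members with an adjusted p under 0.05, a change of at least 2-fold and a higher group mean of at least 1 CPM, for the highest member by TPM of each role, and for further members named for the pattern they show; of each related list up to 3 called genes with the largest change and a higher group mean of at least 1 CPM are named, with PTPRZ1 and CD44 added as possible carriers of chondroitin sulfate. Promoter sequences are from RefSeq, GRCh38.p14, and 52 of 60 members were matched by symbol.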

Additional observations from a re-analysis of the deposited data

How the results depend on the processing

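Of the 30 called members, 23 kept the call in each of 18 alternatives that tested them, 0 reversed, and 7 lost it in at least 1 (CHST9, CHST11, CHST14, GPC4, GPC5, SDC4 and SULF1). Leaving out single libraries gave 6 to 11 members higher and 18 to 26 lower in liver-derived cells, and 2432 to 5714 genes higher and 3168 to 6156 lower over all genes. The upper ends came without parental replicate 2. Without both second replicates, 11 members were higher, as were 5759 genes. Same-numbered libraries of both groups did not deviate together (r = -0.01, 0.01 and 0.07). These deviations are taken from group means that parental replicate 2 shifts, so they cannot show whether same-numbered libraries shared a batch. With the replicate number as a block in edgeR, 7 members were higher and 22 lower. GPC4 (adjusted p = 0.085) and CHST9 (0.0538) were then no longer called, and EXTL2 (0.0261) was added. Genes under 1 CPM rest on few reads, and small changes there were not detectable at this depth. Among members that were not called, log2 fold changes near 0 changed sign, and the span over libraries left out is given first. SDC2 ran from -0.02 to 0.06, and was at -0.0048 with upper-quartile factors, -0.05 with library size alone, -0.02 with no filter, without parental replicate 2 or 3 or both second replicates, and -0.03 in the limma fits on TPM. EXT2 ran from -0.01 to 0.1, and was at -0.02 with library size alone, -0.01 without parental replicate 1, and -0.0045, -0.0046 and -0.0045 in those limma fits. CSGALNACT2 ran from -0.16 to 0.12, and was at -0.0013 with upper-quartile factors, -0.05 with library size alone, -0.02 with no filter, -0.01, -0.0031 and -0.01 in the limma fits, and called at -0.16 without parental replicate 2 and without both second replicates. CHSY1 ran from -0.04 to 0.05, and was at -0.0031 with upper-quartile factors, -0.04 with library size alone and without liver-derived replicate 3, -0.02 with no filter, and -0.03 without parental replicate 2 and in the limma fits. XYLT1 ran from -0.12, without both second replicates, to 0.44, with -0.02 without liver-derived replicate 2. HS2ST1 ran from -0.09, without both, to 0.28, with -0.07 without parental replicate 2. GPC2 ran from -0.19 to 0.03, the highest without parental replicate 2. CHST12 ran from -0.01, without parental replicate 1, to 0.17. CHST6 ran from -0.04, without parental replicate 1, to 0.23, with -0.02 without parental replicate 3. The cause was not tested.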
